A study of Mus musculus with 22 samples.

Results

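Sdf2l1, Creld2, Dnajb9, Dnajb11, Hspa5, Hsp90b1, Pdia4, Manf, Hyou1 and Calr are genes for chaperones and folding factors of the endoplasmic reticulum (ER) that the transcription factors ATF6 and XBP1 are known to induce. The 10 genes were taken by name, and all 10 were among the 12596 genes of the deposited table. They were chosen on measured values of these data. The difference between hTyr and EYFP animals in ribosome-bound RNA was already known, and so was its excess over that in whole tissue. The difference in ribosome-bound RNA, and every comparison that uses the IP libraries behind it, is therefore given as a description without a p-value. A count of genes past the threshold is given there only beside the share of all genes called.

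The libraries came from 11 mice that carried both a Th-cre and a Slc6a2-eGFP/Rpl10a transgene on a C57Bl/6 background. The Slc6a2 promoter drives a tagged ribosomal protein, and the tag allows ribosomes with their RNA to be pulled down from noradrenergic cells. Of these mice, 5 were infused with hTyr, human tyrosinase, and 6 with the fluorescent protein EYFP, and both transgenes were present in the controls too. From each mouse the pulled-down RNA (IP) and the RNA before the pull-down (input) were sequenced, so that both treatments have an IP and an input group. Animals are named by the label of their IP library, as in IP_501. The labels used here give neither the age of the animals, nor the time after infusion, nor the vector. Levels are log2 CPM, read counts scaled to a common library size,, and differences are on the same log2 scale.

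Unfolded protein in the ER activates sensors in its membrane. ATF6 is carried to the Golgi and cut there, and the released part enters the nucleus, while the sensor IRE1 splices the mRNA of XBP1 into a form that encodes an active factor. Both factors raise the transcription of chaperones such as Hspa5 (BiP), and secretory cells and neurons depend on this reserve for folding membrane and secreted proteins.

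The promoters of several of these genes are known for the ER stress response element (ERSE), in which a CCAAT box bound by NF-Y lies a fixed distance from a CCACG box bound by ATF6. The element was searched on both strands as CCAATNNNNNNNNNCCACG in RefSeq windows (GRCm38.p6) from 250 bases before to 50 bases after each gene's start. A window was held for 8 of the 10 genes, without Manf and Hyou1. The letters matched in 4 of the 8 windows, against 39 of 32851 windows of all genes (0.119%). Hsp90b1 matched at 2 places, on opposite strands. Where a match lies on the strand opposite to the gene, as in Calr and Creld2, its letters appear as the reverse complement. The stretches are printed 5′ to 3′ on the strand of the gene, with the match in capitals, to show the element that these genes share.
Hspa5, chr2:34772020-34772048, plus strand: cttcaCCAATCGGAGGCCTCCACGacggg
Hsp90b1, chr10:86705518-86705671, minus strand: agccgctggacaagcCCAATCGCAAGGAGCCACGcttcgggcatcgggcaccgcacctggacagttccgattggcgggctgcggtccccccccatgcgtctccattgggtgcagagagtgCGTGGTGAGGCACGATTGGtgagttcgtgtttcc
Calr, chr8:84847060-84847108, minus strand: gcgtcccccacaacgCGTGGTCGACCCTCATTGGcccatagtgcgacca
Creld2, chr15:88819505-88819553, plus strand: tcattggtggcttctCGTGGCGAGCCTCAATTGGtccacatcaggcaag

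Counted from the start of the gene, with bases before it negative, the matches began at -65 in Hspa5, at -212 and -107 in Hsp90b1, at -162 in Calr and at -126 in Creld2. The Hspa5 match lies within a longer first exon of the GENCODE annotation, and the other 3 stretches lie outside the GENCODE span of their own gene. Overlap of these stretches with exons of other genes was not examined. With at most 1 fixed letter changed, 1.5% of all windows matched and 5 of the 8. The addition was Pdia4, whose GENCODE start, at base 47813430, lies downstream of the RefSeq start used here. It is printed from -123 to -75 of the RefSeq start.
Pdia4, chr6:47813587-47813635, minus strand: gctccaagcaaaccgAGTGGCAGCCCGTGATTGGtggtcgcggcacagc
The second form of the element, searched as ATTGGNCCACG, was in 0.0365% of windows and in that of Dnajb11, where it starts at base 8 of the gene, in its first exon.
Dnajb11, chr16:22857852-22857862, plus strand: ATTGGCCCACG

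The windows of Sdf2l1 and Dnajb9 held neither form, which says only that these letters are not in these windows. CCACG alone was in all 8 windows and in 32.8% of all windows, and CCAAT alone was in all 8 and in 37.4%. These short motifs share their letters with the longer ones. The XBP1-type core TGACGTGG was in 0.676% of windows and in none of the 8.

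Depth ranged from 12654489 to 20368032 reads in the IP libraries and from 16988860 to 25100142 in the input libraries, and a gene of the set had 224 to 9947 reads in a library. The 10 noradrenergic marker genes averaged 5.49 to 7.35 log2 CPM in IP and 3.39 to 3.74 in input. All 10 passed the test as higher in IP in both treatments, where 28.5% of all genes did so in EYFP and 27.4% in hTyr animals. Of 10 markers of other neurons, 8 passed as higher in EYFP and 7 in hTyr animals. The IP libraries still held glial RNA. The 8 oligodendrocyte markers averaged 8.76 to 9.22 in IP and 8.80 to 9.24 in input, and none of the 8 was absent from the table. In the annotation, exons of Rbm15b, Dcaf1 and 1 other gene overlap those of Manf, exons of 3 other genes overlap those of Hsp90b1, and a microRNA gene overlaps Dnajb9 and another Pdia4. Whether reads were counted by strand is not given in the sources used here, so reads of such exons cannot be assigned with certainty.

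The question of the first comparison is what the hTyr infusion changed in RNA on noradrenergic ribosomes. All 10 genes had a higher mean in hTyr IP than in EYFP IP, with a median difference of 0.50 against -0.0055 over all genes of the table. Sdf2l1 led with 1.44, followed by Creld2 with 0.86, and the smallest difference was that of Dnajb11 with 0.19. The direction is part of what chose the genes and is not an independent finding. The adjusted p was under 0.05 for 2 of the 10, Sdf2l1 and Dnajb9, in a comparison that called 0.0556% of all genes, and nothing is read from that count.

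Sdf2l1 encodes an ER protein that binds Dnajb11 and keeps misfolded protein from aggregating. Its level in hTyr IP was 6.60 in animal IP_501, 6.42 in IP_502, 5.55 in IP_508, 5.76 in IP_509 and 5.62 in IP_510. In EYFP IP it was 4.11 at the lowest, 4.62 at the median and 4.82 at the highest. The groups did not overlap, and animals IP_501 and IP_502 were the 2 highest. The difference was 1.44 (SE 0.19), or 2.72-fold.

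Creld2, a cysteine-rich ER protein that can be secreted, measured 5.82, 5.33, 4.86, 5.09 and 4.55 in hTyr IP in the same order of animals. In EYFP IP it ranged from 3.76 through a median of 4.31 to 4.65. Animal IP_510 lay within the EYFP range and the other 4 lay above it. The difference was 0.86 (SE 0.19), or 1.82-fold.

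Hspa5, the Hsp70 chaperone of the ER, measured 9.15, 8.75, 8.58, 8.89 and 8.42 in hTyr IP. In EYFP IP it ranged from 7.85 through a median of 8.23 to 8.61. Animals IP_508 and IP_510 fell within the EYFP range, whose top was set by animal IP_507. The difference was 0.53 (SE 0.14), or 1.45-fold.

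The J-domain proteins Dnajb9 and Dnajb11 hand substrates to Hspa5, and Dnajb9 also restrains the sensor IRE1. Dnajb9 measured 6.30, 6.26, 5.93, 6.14 and 6.02 in hTyr IP and from 5.35 through a median of 5.60 to 5.74 in EYFP IP. Its groups did not overlap, with a difference of 0.57 (SE 0.094). Dnajb11 measured 6.10, 5.95, 5.88, 5.95 and 5.67 in hTyr IP and from 5.60 through 5.72 to 5.82 in EYFP IP. Animal IP_510 overlapped the EYFP libraries, and the difference was 0.19 (SE 0.086).

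Pdia4 is a protein disulfide isomerase, which forms and reshuffles disulfide bonds. It measured 6.68, 6.43, 5.75, 6.09 and 5.66 in hTyr IP and from 5.21 through 5.47 to 5.71 in EYFP IP, a difference of 0.66 (SE 0.16). Only animal IP_510 fell within the EYFP range.

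Hsp90b1 and Hyou1 work in the same folding cycle as Hspa5. Hsp90b1, the ER member of the Hsp90 family, measured 8.85, 8.62, 8.77, 8.91 and 8.54 in hTyr IP and from 7.87 through 8.38 to 8.56 in EYFP IP, a difference of 0.46 (SE 0.13). Hyou1, a large Hsp70-like protein that recharges Hspa5 with nucleotide, measured 7.21, 7.11, 6.65, 6.74 and 6.99 in hTyr IP and from 6.35 through 6.56 to 6.92 in EYFP IP, a difference of 0.36 (SE 0.12). Of the hTyr libraries, 1 lay within the EYFP range for Hsp90b1 and 2 for Hyou1.

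Calr, the calcium-binding lectin that folds glycoproteins, measured 9.10, 8.95, 8.87, 8.93 and 8.61 in hTyr IP and from 8.26 through 8.63 to 8.77 in EYFP IP, a difference of 0.34 (SE 0.11). Manf, an ER protein with neurotrophic activity when secreted, measured 6.87, 6.47, 6.30, 6.54 and 6.01 in hTyr IP and from 5.78 through 6.15 to 6.47 in EYFP IP. Its difference was 0.30 (SE 0.14), and 3 of the 5 hTyr libraries lay within the EYFP range. Complete separation of the groups with hTyr higher was seen for 2 of the 10 genes and for 0.389% of all genes.

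**Figure D1:**
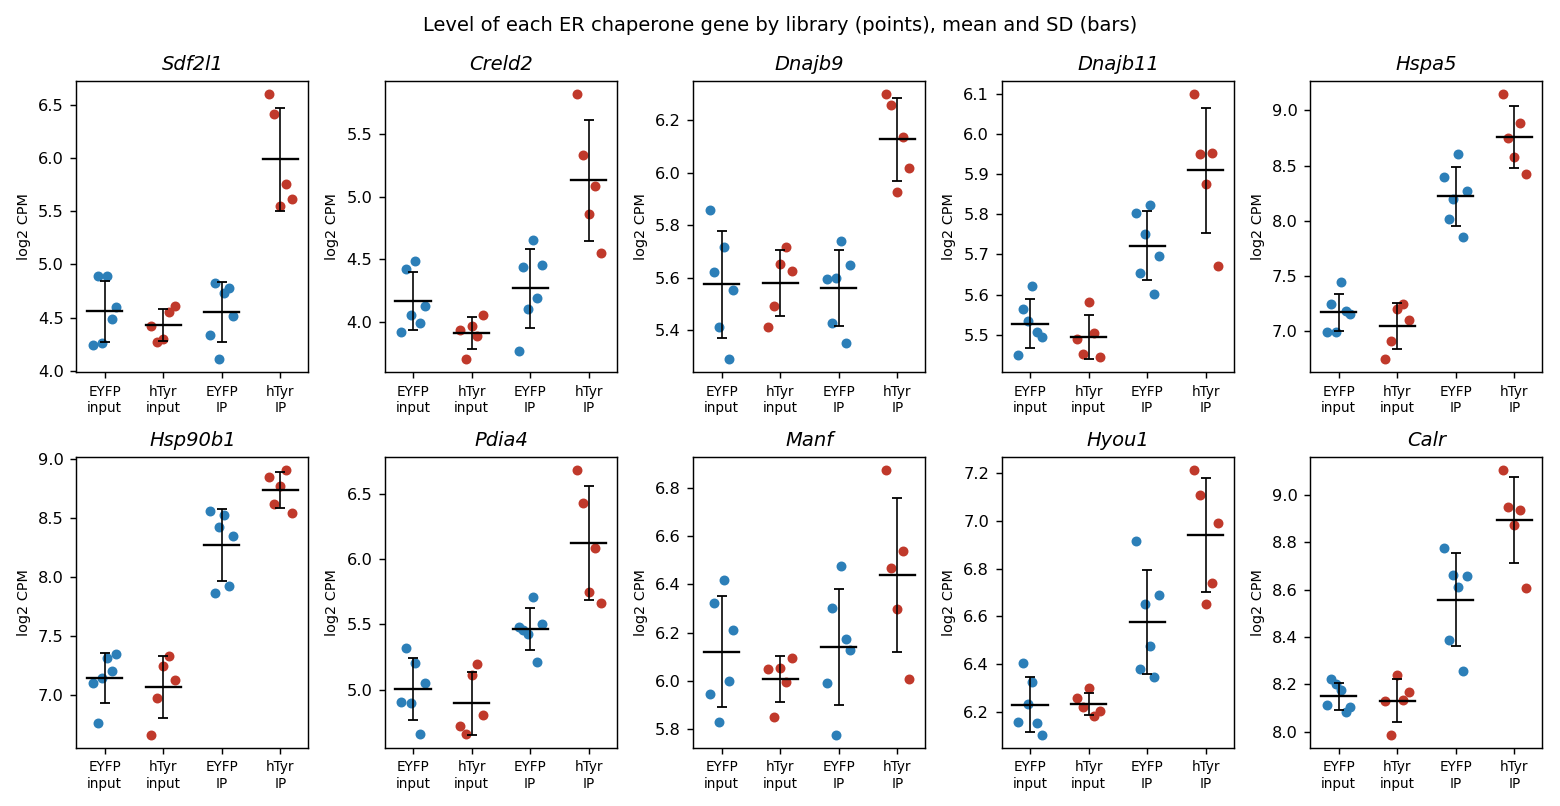
Level of each of the 10 genes (vertical axis, log2 CPM, a separate scale for each gene that does not start at 0) in every library of the 4 groups. Points are libraries, horizontal bars are group means and whiskers are SD (n = 5 hTyr, n = 6 EYFP). In hTyr IP Sdf2l1 and Dnajb9 lie wholly above EYFP IP, while the 2 input groups overlap for all 10 genes.

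The reads of the 10 genes together made up 0.154% to 0.225% of a library in hTyr IP and 0.112% to 0.152% in EYFP IP. These ranges nearly touch and come from the libraries that chose the genes, so nothing is read from their separation. In the input libraries the reads of the 10 genes made up 0.0799% to 0.0941%. Among the hTyr IP libraries, that of animal IP_501 was the highest for 9 of the 10 genes, and Hsp90b1 was the exception, highest in animal IP_509. Animal IP_510 was the lowest for 7 genes and animal IP_508 for the other 3.

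The noradrenergic markers were also highest in animals IP_501 and IP_502, but did not follow the order of the other 3, among which IP_510 had the lowest chaperone mean and the highest marker mean. The marker mean was 7.35 in animal IP_501 and 6.59 in animal IP_502, against 5.81 in IP_508, 6.04 in IP_509 and 6.12 in IP_510. It was 5.49 to 6.57 in EYFP IP. In hTyr IP 9 of the 10 markers had a higher mean than in EYFP IP, and none passed the threshold. In bulk samples fewer cells of a type and less RNA per cell cannot be told apart. With the marker mean as a covariate the 10 genes kept 55.6% (Hyou1) to 90.7% (Sdf2l1) of their differences, with a median of 76.8%. Sdf2l1 kept 1.31 (SE 0.19) and Dnajb9 0.48 (SE 0.091). The hTyr IP libraries had fewer reads than the EYFP IP libraries on average, and with total reads as a covariate the genes kept 73.8% (Manf) to 105% (Hyou1). The part of marker level or depth in the differences was not tested further. The oligodendrocyte, astrocyte and microglial marker means of the 2 treatments overlapped in IP, at 8.82 to 9.22 against 8.76 to 9.13, 7.61 to 7.94 against 7.36 to 8.02, and 4.58 to 5.46 against 4.48 to 5.29.

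**Figure D2:**
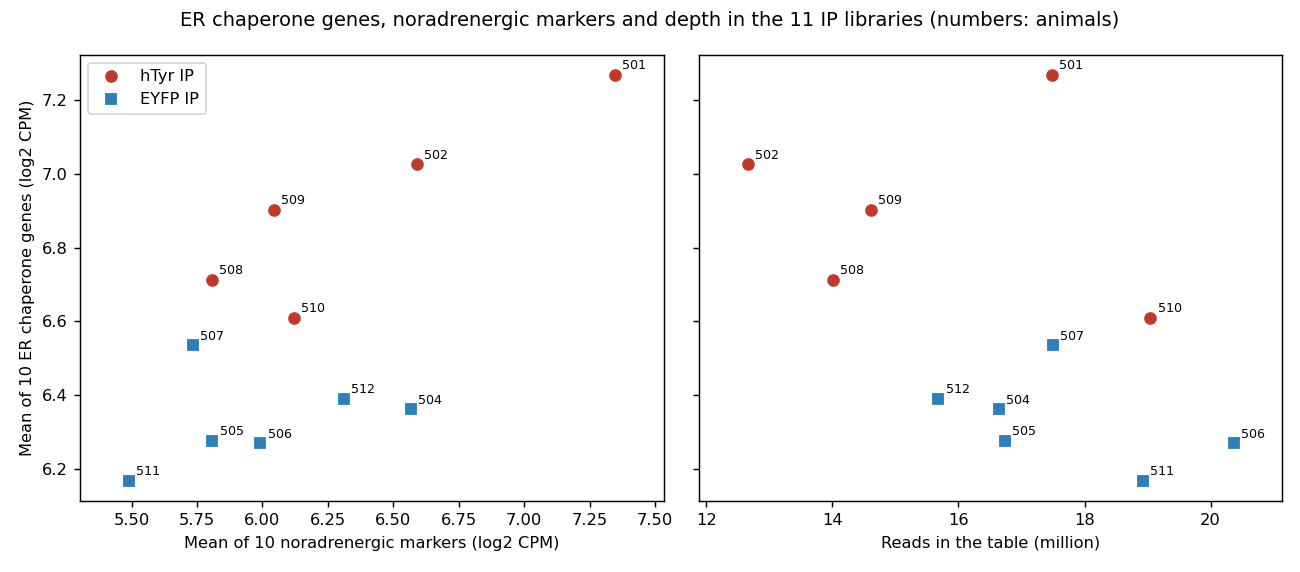
Mean of the 10 ER chaperone genes (vertical axis, log2 CPM) against the mean of 10 noradrenergic markers (left, log2 CPM) and against reads in the table (right) in the 11 IP libraries, numbered by animal. The hTyr libraries (circles) have chaperone means of 6.61 to 7.27 and the EYFP libraries (squares) 6.17 to 6.53, with animals IP_501 and IP_502 high on both axes at left.

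With each animal left out in turn the Sdf2l1 difference ran from 1.29 to 1.55, that of Creld2 from 0.69 to 1.01 and that of Dnajb9 from 0.52 to 0.62. All 10 differences stayed positive with each animal left out and under the 11 other settings run.

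Whole dissected tissue gives a comparison that did not itself choose the genes. The excess of the hTyr difference in IP over that in input did choose some of them, and it subtracts the input difference. Low values in input are therefore not free of that choice, nor are their p-values. In the input libraries none of the 10 genes passed the threshold for hTyr against EYFP. The comparison called 0.00794% of all genes, namely Slc6a2 alone, which was lower in hTyr. The mean was lower in hTyr for 8 of the 10, with a median difference of -0.092 against -0.0089 for all genes. Creld2 was the single gene of the 10 with an unadjusted p under 0.05, which 382 of all 12596 genes had.

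Sdf2l1 measured 4.42, 4.27, 4.29, 4.55 and 4.61 in hTyr input and from 4.24 through 4.54 to 4.89 in EYFP input. The hTyr values lay inside the EYFP range, and the difference was -0.13 (95% interval -0.40 to 0.13, adjusted p = 0.99 in limma). Creld2 measured 3.94, 3.70, 3.97, 3.88 and 4.05 in hTyr input and from 3.91 through 4.09 to 4.48 in EYFP input. It was lower by more than its SE, at -0.26 (95% interval -0.49 to -0.020), with an unadjusted p of 0.0356 and an adjusted p of 0.99 in limma. Hspa5 measured 6.75, 6.91, 7.20, 7.25 and 7.10 against a range from 6.99 through 7.17 to 7.45, a difference of -0.13 (95% interval -0.34 to 0.082, adjusted p = 0.99 in limma).

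Intervals of the other 7 genes in input all held 0. That of Dnajb9 ran from -0.20 to 0.21, that of Pdia4 from -0.37 to 0.15, and that of Hsp90b1 from -0.33 to 0.18. For Dnajb11, Calr and Hyou1, which varied least, the intervals ran from -0.16 to 0.092, from -0.14 to 0.11 and from -0.14 to 0.14, and for Manf from -0.32 to 0.097. The 2 input groups overlapped for every one of the 10 genes, and 0.175% of all genes had input groups that did not overlap.

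The hTyr difference in IP exceeded the one in input for all 10 genes, by a median of 0.55. The excess was 1.58 (SE 0.24) for Sdf2l1, 1.12 (SE 0.24) for Creld2, 0.76 (SE 0.21) for Pdia4, 0.66 (SE 0.18) for Hspa5, 0.56 (SE 0.14) for Dnajb9 and 0.54 (SE 0.19) for Hsp90b1. It was 0.41 (SE 0.18) for Manf, 0.36 (SE 0.14) for Hyou1, 0.35 (SE 0.12) for Calr and 0.22 (SE 0.098) for Dnajb11. The adjusted p was under 0.05 for 1 of the 10, Sdf2l1, in a comparison that called 0.00794% of all genes. With animals entered as a replicate block, which pairs IP and input, it was so for Sdf2l1 and Creld2, and 0.0397% of all genes were called. This comparison shares its IP libraries with the first and also chose some of the genes, so nothing is read from these counts.

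**Figure D3:**
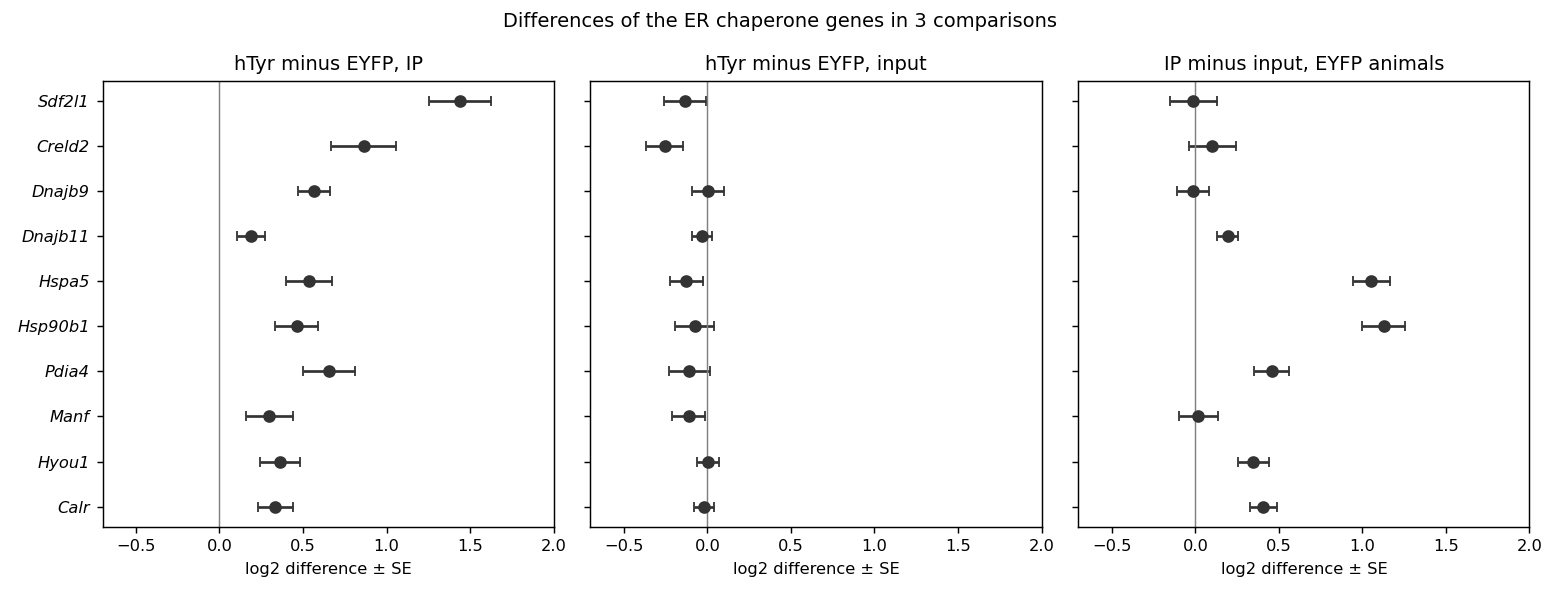
Log2 difference (horizontal axis, points with SE whiskers) of each of the 10 genes in 3 comparisons: hTyr minus EYFP in IP, hTyr minus EYFP in input, and IP minus input in EYFP animals. In IP the differences run from 0.19 to 1.44, in input from -0.26 to 0.0052, and the difference between IP and input in control animals is largest for Hsp90b1 and Hspa5.

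IP against input in the EYFP animals shows which of these RNAs were higher in the pulled-down RNA of controls than before the pull-down. The median of this difference was 1.95 for the noradrenergic markers, 0.48 for markers of other neurons and 0.41 for astrocyte markers. It was 0.14 for endothelial, 0.048 for oligodendrocyte and 0.0465 for microglial markers. A higher level in IP is therefore not particular to noradrenergic RNA. The EYFP IP libraries are also the controls of the comparison that chose the genes, so these differences are a description too. The general chaperones Hsp90b1 and Hspa5 had the largest differences, above 1, and those of Sdf2l1, Dnajb9 and Manf were near 0. The adjusted p was under 0.05 for 6 of the 10 genes, all 6 higher in IP, in a comparison that called 56.5% of all genes and 28.5% of all genes as higher in IP. Nothing is read from that count.

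Hsp90b1 stood at 7.87 to 8.56 in EYFP IP and 6.76 to 7.35 in EYFP input, and no library overlapped. The difference was 1.13 (SE 0.13), or 2.18-fold. Hspa5 stood at 7.85 to 8.61 and 6.99 to 7.45, again without overlap, with a difference of 1.05 (SE 0.11). Within animals the Hspa5 difference ran from 0.67 to 1.40 and was positive in 6 of 6.

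Calr, Pdia4 and Hyou1 had smaller differences. Calr stood at 8.26 to 8.77 in IP and 8.09 to 8.22 in input, a difference of 0.41 (SE 0.081) that was positive in 6 of 6 animals. For Pdia4 it was 0.46 (SE 0.11) and positive in 6 of 6, and for Hyou1 it was 0.35 (SE 0.092) and positive in 5 of 6. Dnajb11 differed by 0.19 (SE 0.062) and was higher in IP in 6 of 6 animals. Groups without overlap and higher in IP were seen for Hspa5, Hsp90b1 and Calr, and for 16.7% of all genes.

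Sdf2l1 differed by -0.012 (SE 0.14) between IP and input and was higher in IP in 2 of 6 animals. Creld2 differed by 0.10 (SE 0.14), Manf by 0.019 (SE 0.12) and Dnajb9 by -0.014 (SE 0.095). Each of these 4 differences was smaller than its SE in the main fit, which does not pair IP with input. Within animals Creld2 was higher in IP in 5 of 6, Manf in 3 and Dnajb9 in 4. With each library's trend on gene length and GC content removed, the Dnajb9 difference was -0.27.

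In the hTyr animals the mean of each of the 10 genes was higher in IP than in input. The adjusted p was under 0.05 for all 10, in a comparison that called 54.4% of all genes and 27.4% of all genes as higher in IP, and for 8 once total reads were a covariate, without Dnajb11 and Manf. The differences were 1.71 (SE 0.13) for Hspa5, 1.67 (SE 0.11) for Hsp90b1, 1.56 (SE 0.17) for Sdf2l1, 1.22 (SE 0.17) for Pdia4 and 1.22 (SE 0.17) for Creld2. They were 0.76 (SE 0.092) for Calr, 0.71 (SE 0.10) for Hyou1, 0.55 (SE 0.095) for Dnajb9, 0.43 (SE 0.12) for Manf and 0.41 (SE 0.089) for Dnajb11. Within the 5 hTyr animals the Sdf2l1 difference was 2.19 in animal IP_501, 2.15 in IP_502, 1.26 in IP_508, 1.21 in IP_509 and 1.01 in IP_510, against -0.16 to 0.29 in the 6 EYFP animals. For Creld2 it was 1.88, 1.63, 0.89, 1.20 and 0.50, against -0.15 to 0.33. With the length and GC trend removed the Dnajb9 difference fell from 0.55 to 0.19 and its adjusted p was above 0.05. The values of the hTyr animals use the hTyr IP libraries of the first comparison and carry no test.

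Per kilobase of exon, Calr was the most abundant of the 10 in all 4 groups, followed by Hsp90b1 and Hspa5. In EYFP IP Calr stood at 172.6 CPM per kilobase, Hsp90b1 at 109.5, Hspa5 at 79.6, Manf at 28.6 and Sdf2l1 at 21.1. The next 4, Hyou1 at 19.99, Dnajb9 at 19.2, Pdia4 at 18.4 and Dnajb11 at 16.3, lay close together, and Creld2 was last at 14.1. Sdf2l1 exceeded Hyou1 in 3 of 6 libraries, so those neighbours had no set order, and the same held for Dnajb11 and Creld2. In hTyr IP Sdf2l1 stood at 57.4 CPM per kilobase and above Manf (35.2) in 5 of 5 libraries, whereas Manf was above Sdf2l1 in 6 of 6 EYFP IP libraries. Dnajb11 was last in hTyr IP at 18.6.

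The 10 genes varied together within treatments. Over the 11 IP libraries, with each gene centred on its treatment mean, Pearson's r between 2 of the genes had a median of 0.62 and was positive in 43 of 45 pairs. The highest was 0.91, between Hspa5 and Dnajb11, and the lowest -0.28, between Sdf2l1 and Hsp90b1. Pdia4 followed the mean of the other 9 most closely (r = 0.97) and Hsp90b1 least (r = 0.37). In the 11 input libraries the median was 0.52 and 40 of 45 pairs were positive. Genes of a library share its depth and its cell makeup, so these values are descriptions.

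Outside the set, the 8 genes closest to the mean of the 10 over the 11 IP libraries were Nucb2 (r = 0.95), Ostc (0.92), Csnk2b (0.92), Tnfrsf12a (0.92), Sec63 (0.92), Cgref1 (0.90), S100a10 (0.90) and Mcfd2 (0.90). Their differences between hTyr and EYFP in IP were 0.62 for Nucb2, 0.33 for Ostc, 1.03 for Tnfrsf12a, 0.38 for Cgref1 and 0.22 for Mcfd2. For Csnk2b, Sec63 and S100a10 they were -0.067, -0.050 and 0.029. The median r was 0.57 for the 15 KDEL receptor and translocon genes and 0.65 for the 10 noradrenergic markers, against 0.00098 over all other genes. It was 0.30 for the other ER chaperones, 0.28 for ER-associated degradation, 0.25 for PERK and ATF4, 0.11 for cytosolic heat shock proteins and -0.12 for the sensors and transcription factors.

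Other genes of the ER stress response were followed through 6 lists, and in hTyr against EYFP in IP their counts past the threshold were 0 except for the PERK and ATF4 branch. A higher mean in hTyr IP than in EYFP IP was seen for 48.2% of all genes. Of the 28 other ER chaperones and folding enzymes measured, 24 had a higher mean in hTyr IP, with a median of 0.095. The 3 with the largest differences were the disulfide isomerases Pdia3 (0.36, SE 0.12) and Pdia6 (0.36, SE 0.11) and the membrane lectin Canx (0.28, SE 0.12). Of the 12 sensors and transcription factors 5 were higher, with a median of -0.034. The largest differences in either direction were those of Creb3l1 (0.32, SE 0.23), Nfyb (-0.19, SE 0.12) and Nfya (-0.11, SE 0.13). Creb3l1 had only 37 to 94 reads in a hTyr IP library and 44 to 80 in an EYFP IP library. The 2 factors that give the set its name, shown whatever their values, differed by -0.0070 (SE 0.090) for Atf6 and by 0.10 (SE 0.084) for total Xbp1 RNA, and these gene totals do not show protein cleavage or splicing.

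Of 11 ER-associated degradation genes 7 were higher, with a median of 0.15, led by Edem3 (0.23), Derl2 (0.17) and Edem1 (0.17). Of 15 KDEL receptor and translocon genes 11 were higher, with a median of 0.084. Among these the translocon-associated subunit Ssr3 (0.23, SE 0.078) had groups that nearly touched without overlap. Its lowest hTyr IP value was 6.8917 and its highest EYFP IP value 6.8911. Kdelr2 (0.21) and Ssr1 (0.18) followed. Of all genes, 0.389% had groups that did not overlap with hTyr higher. Of 17 PERK and ATF4 genes 14 were higher, with a median of 0.11. The stress transcription factors Atf3 (1.54, SE 0.25) and Ddit3 (1.14, SE 0.19) were past the threshold, 2 genes in a comparison that called 0.0556% of all genes. The lists were chosen with earlier results of these data known, so nothing is read from that count. Atf3, with 35 to 215 reads in an IP library, differed by 0.80 with a pseudocount of 5 CPM. The call of Atf3 was lost with each animal left out other than EYFP IP_504 or hTyr IP_508. That of Ddit3 was lost without hTyr IP_501, IP_502 or IP_509 and without EYFP IP_504, IP_506, IP_511 or IP_512. Ppp1r15a, which directs dephosphorylation of eIF2α, differed by 0.71 (SE 0.16). Groups that did not overlap, with hTyr higher, were also those of Atf3, Ddit3 and Ppp1r15a among the genes named here. Of 13 cytosolic heat shock genes 8 were higher, with a median of 0.014, and the largest differences were those of Hspa1b (-0.66, SE 0.34), Hspa1a (-0.36, SE 0.25) and Hspb1 (-0.26, SE 0.15). In input 0 genes of the 6 lists passed for hTyr against EYFP, and 2 had an unadjusted p under 0.05, Ppib (0.20) and Hspa4 (-0.24), named after their values were seen. Of all 12596 genes, 382 had an unadjusted p under 0.05 in that comparison, so nothing is read from this count.

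**Figure D4:**
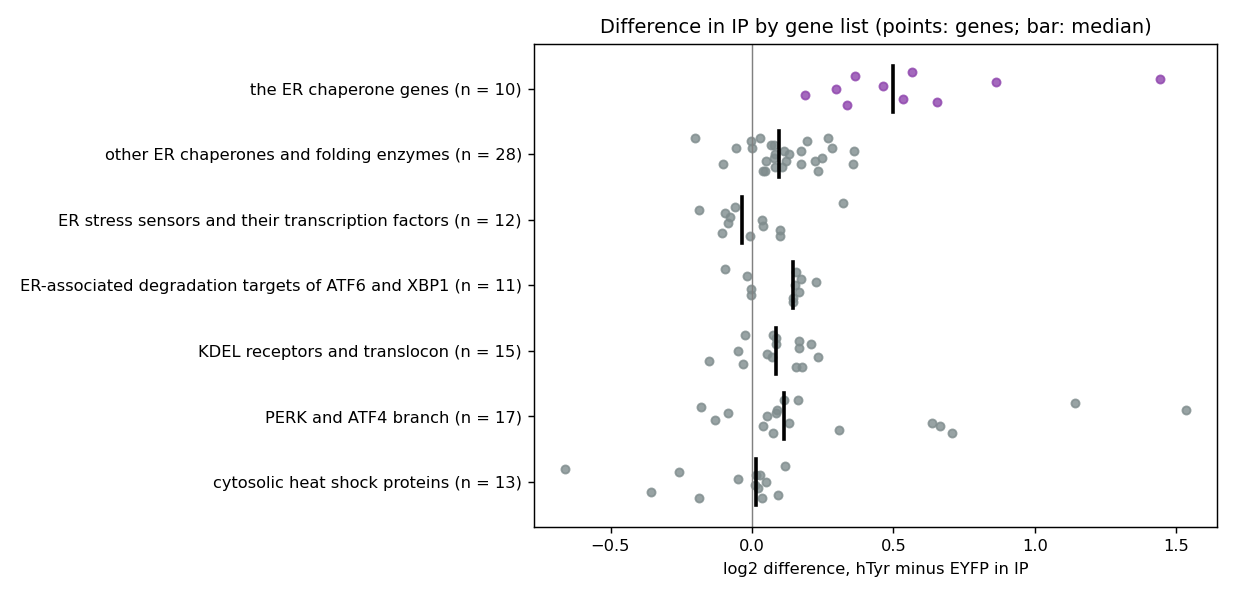
Log2 difference between hTyr and EYFP in IP (horizontal axis) for the 10 ER chaperone genes and for the genes of 6 other lists, with points for genes and a bar at each list's median. The median is 0.50 for the 10 chosen genes and lies between -0.034 and 0.15 for the other lists, and Atf3 and Ddit3, both from the PERK and ATF4 branch, lie farthest to the right outside the chosen set.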

How the data were processed

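RNA sequencing covered 22 libraries of 11 animals. Reads were aligned with STAR to mm10 and counted with featureCounts, per the submitters' processing notes, and versions, annotation, strand setting, filter and normalization are not given in the sources used here. The authors deposited log2 values for 12596 genes. Tested on the values, these are log2 CPM with a prior averaging 2 reads, and 100% of values under 3000 reads came out as whole reads (tolerance 0.05), which gives the depth. Read counts cover counting error only.

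The tests used those values as they stand, in limma 3.58.1 under R 4.3.3, by lmFit and then eBayes with a mean-variance trend, with Benjamini-Hochberg adjustment over all 12596 genes and a threshold of 0.05. The replicates are separate animals by the numbers in the sample titles, and those numbers pair IP with input. The main fits of IP against input, and of the hTyr effect in IP minus that in input, did not use this pairing. Their SEs are those of unpaired groups. Deviations from group means correlated at a mean r of 0.448 within an animal (0.279 to 0.626, n = 11) and -0.0428 between animals.

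The genes and lists were chosen with earlier results of these data known. All 10 genes are named in every comparison, and of each list the genes past the threshold and the 3 with the largest difference in IP. Of the lists, Pdia5, Fkbp11, Cdnf, Selenof, Ern1, Derl3, Kdelr3, Trib3 and the endothelial marker Cdh5 were not analysed here. Lengths, GC content and exons came from GENCODE, matched for 12377 genes (98.3%). Alternatives were median centring, quantile normalization, no variance trend, a pseudocount of 5 CPM, the upper 75% of genes, sample weights, a shared spread, covariates, the replicate block, length and GC correction (loess, span 0.4) and leaving out each animal. Voom on the recovered reads was chosen after seeing the data. The procedure was tested on simulated data.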

Additional observations from a re-analysis of the deposited data

Results flagged for a closer look

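The hTyr effect differed between IP and input for Sdf2l1, by 1.58 on the log2 scale in the test of the difference itself, with an effect of 1.44 in IP and -0.13 in input. For Creld2 the same difference was 1.12, with 0.86 in IP and -0.26 in input. It was past the threshold with animals as a replicate block and without hTyr IP_510, but not in the fit of all animals without that block. Both comparisons share the hTyr IP libraries that chose these genes, so the values are descriptions and their calls support nothing. No library stood far from the others of its group in any of the 40 gene and group combinations examined, where chance would give about 2.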

How the results depend on the processing

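In IP, hTyr against EYFP left 1 of the 10 genes past the threshold, in place of 2, without the variance trend and with total reads or the noradrenergic marker mean as a covariate, 3 with a spread shared over all libraries (Sdf2l1, Creld2 and Dnajb9), and 1 to 2 with each animal left out, with 2 only without EYFP IP_507 or hTyr IP_508. For the difference of the hTyr effects the count of 1 became 0 once total reads were a covariate, 2 with the replicate block, 2 with the replicate block and the length and GC correction, and 0 to 2 with each animal left out (0 without hTyr IP_502 or EYFP IP_512, 2 without hTyr IP_510). In IP against input 6 of 10 became 5 to 7 in EYFP animals. Dnajb11 was lost with median centring, quantile normalization or without EYFP IP_504. Dnajb9 was gained as lower in IP (-0.27) with the length and GC correction, unlike the other 6, which were higher in IP. In hTyr animals 10 became 8 with total reads and 9 with that correction. The replicate block changed no other call among the 10 genes. The cause of these shifts was not tested.

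Differences near 0 changed sign under some settings. In input these were Dnajb9 (-0.0064) and Hyou1 (-0.013) with the marker covariate, Hsp90b1 (0.026) with total reads, and Calr (0.0079) with median centring. With each animal left out, Dnajb9 ran from -0.0515 to 0.0615, Hyou1 from -0.0226 to 0.0371, Hsp90b1 from -0.154 to 0.0248 and Calr from -0.0456 to 0.0168. In IP against input of EYFP animals Sdf2l1 was 0.024 with the length and GC correction, with and without the replicate block, Dnajb9 was 0.026 with sample weights, and Manf was -0.032 with median centring, -0.025 with quantile normalization and -0.058 with total reads. With each animal left out, Sdf2l1 ran from -0.0724 to 0.0169, Dnajb9 from -0.0546 to 0.0352 and Manf from -0.0117 to 0.039. The planned edgeR quasi-likelihood test was not run, since the deposited unit is a log2 value. Each gene had at least 224 reads in each library.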
